A study of Homo sapiens with 24 samples.

Results

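The plasminogen activator system was examined through 8 genes taken by name from the deposited tables, of 60623 gene records in all: PLAU and PLAT, the plasminogen activators, PLAUR and PLGRKT, receptors of the urokinase activator and of plasminogen, the serpin genes SERPINE2, SERPINB2 and SERPINB8, and LRP1, an endocytic receptor. The system turns plasminogen into plasmin, a broad serine protease that dissolves fibrin and cuts matrix proteins. Urokinase, the product of PLAU, does so mainly at the cell surface when bound to its receptor, while the tissue-type activator encoded by PLAT works best on fibrin. Serpins trap the activators in covalent complexes, and LRP1 carries such complexes into the cell. In lung and other carcinomas urokinase and its receptor are known for their link with invasion.

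Gene expression was measured by strand-specific sequencing of total RNA in 24 libraries of 4 human lung cancer cell lines, with 3 libraries, described as independent biological replicates, in each of 8 groups. A549 and H1299, lines of non-small cell lung cancer, each had wild-type control libraries and libraries overexpressing (OE) HEPACAM2, an adhesion molecule of the immunoglobulin superfamily. DMS454 and H1694, lines of small cell lung cancer, each had libraries titled control with a wild-type genotype and libraries titled CRISPR with a HEPACAM2 knockdown genotype. No agent, time or dose separates the groups, and the vector, its promoter, the guides and whether an altered line is 1 clone were not stated by the labels.

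Levels are normalized counts (reads per gene divided by the library's size factor), and changes are log2 fold changes of the OE or CRISPR libraries minus control from limma on log2(normalized count + 1). A gene was tested where 1 group had a mean of at least 10, and called at an adjusted p under 0.05. Total reads per library ran from 12704476 to 31770858. HEPACAM2 rose from 0.367 ± 0.635 (SD, n = 3) to 6007 ± 124 in A549 and from 2.88 ± 0.724 to 25322 ± 1795 in H1299. It went against the titles in the small cell lines, where the libraries labelled CRISPR held more of it than those labelled control: 11187 ± 314 against 6550.1 ± 124 in DMS454 and 10356 ± 214 against 3557 ± 127 in H1694. In their library codes those titled control carry the letter G and those titled CRISPR the letters pL, whose meaning was not settled here. The deposited fold changes set G over pL in these lines, and OE over control in A549 and H1299. For the small cell lines a direction always compares the libraries labelled CRISPR with those labelled control, so each would turn if the titles were exchanged. In H1299, control 1 and OE 1 lay a median of 0.21 log2 units from the other libraries of their groups, against 0.14 to 0.15 for the other 4, and H1299 results are therefore also given without both. In DMS454, CRISPR 3 lay at 0.16, against 0.081 to 0.12 for the other libraries of that line, and the DMS454 values of members below include it. Of 10 neuroendocrine markers all 10 reached 1 RPM (read per 1000000 reads of the library) in DMS454 and in H1694, against 5 in A549 and 4 in H1299. Epithelial markers summed to at most 18.4 RPM in H1694, with CDH1 and KRT8 under 1, and to at least 842 in the other lines, where in H1299 only KRT7, KRT18 and KRT8 of the 7 reached 1. Blood cell markers summed to at most 0.992 in every library. Endothelial markers summed to 131 to 156 in H1694, where only CDH5 reached 1, and to at most 2.04 elsewhere. Fibroblast markers summed to 12.8 to 14.8 in the control arm of DMS454, to 9.70 to 11.3 in its other arm and to at most 4.91 elsewhere. Of these PDGFRA was called higher in A549 (log2 fold change 2.24) and DMS454 (2.75), with a mean under 1 RPM in both lines. FAP was called lower in DMS454 (-0.54) and H1694 (-1.08).

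The 250 bases before the RefSeq start (GRCh38.p14) are shown for PLAU, PLAUR and SERPINE2, called higher in both OE lines, for LRP1, called higher in H1299 only, and for SERPINB8, which was called in no line. PLAT was not examined in this way. Capitals mark AP-1 letters, TGANTCA, and GC boxes, GGGCGG or its reverse complement CCGCCC, and no marked match overlaps another. All are written 5′ to 3′ on the gene's own strand.
PLAU, chr10:73910882-73911131, plus strand: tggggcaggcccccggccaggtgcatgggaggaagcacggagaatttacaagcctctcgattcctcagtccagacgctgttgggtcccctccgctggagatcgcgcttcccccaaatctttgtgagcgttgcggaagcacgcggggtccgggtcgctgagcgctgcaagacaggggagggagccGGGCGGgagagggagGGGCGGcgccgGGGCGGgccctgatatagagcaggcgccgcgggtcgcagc
PLAUR, chr19:43670170-43670419, minus strand: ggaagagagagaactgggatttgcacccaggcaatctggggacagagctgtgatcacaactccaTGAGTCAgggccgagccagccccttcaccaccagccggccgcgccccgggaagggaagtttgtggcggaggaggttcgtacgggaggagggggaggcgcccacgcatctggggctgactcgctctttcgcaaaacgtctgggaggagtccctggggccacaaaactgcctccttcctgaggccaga
SERPINE2, chr2:224038641-224038890, minus strand: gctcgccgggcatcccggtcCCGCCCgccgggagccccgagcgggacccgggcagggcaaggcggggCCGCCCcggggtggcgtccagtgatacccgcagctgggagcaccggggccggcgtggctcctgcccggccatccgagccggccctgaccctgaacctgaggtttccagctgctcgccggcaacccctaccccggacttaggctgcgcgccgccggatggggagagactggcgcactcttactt
LRP1, chr12:57128233-57128482, plus strand: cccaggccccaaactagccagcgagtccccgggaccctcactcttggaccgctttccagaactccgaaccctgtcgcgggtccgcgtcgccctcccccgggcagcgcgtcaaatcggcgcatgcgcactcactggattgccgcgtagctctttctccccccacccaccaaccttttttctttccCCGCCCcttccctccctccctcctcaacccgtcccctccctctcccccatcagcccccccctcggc
SERPINB8, chr18:63969831-63970080, plus strand: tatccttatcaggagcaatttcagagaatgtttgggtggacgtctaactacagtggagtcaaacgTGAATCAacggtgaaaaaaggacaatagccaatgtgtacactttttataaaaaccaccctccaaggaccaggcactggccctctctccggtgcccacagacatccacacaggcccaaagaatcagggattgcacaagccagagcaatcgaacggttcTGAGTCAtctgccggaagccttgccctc

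The windows share no single marked motif. PLAUR held 1 AP-1 match, 186 bases before the start, and SERPINB8 held 2, at 185 and 28 bases. The SERPINB2 window, not printed, held 1 at 102 bases. PLAU, SERPINE2, LRP1 and PLGRKT held no AP-1 match in any window examined, which says only that these letters are not in these 250 bases. GC boxes numbered 3 in the PLAU window shown, 2 in that of SERPINE2 and 1 in that of LRP1. Among 34943 promoter windows of the same length, 6.59% held the AP-1 letters on either strand and 42.5% a GC box. PLAU and SERPINE2 each had a further RefSeq start, whose windows held 0 and 1 GC boxes. Letters of 3 other motifs were searched on both strands: the E-box CACGTG (in 6.32% of all windows), found in the other SERPINE2 window, the TATA box TATAAA (10.8%), found in SERPINB2 and SERPINB8, and the TEAD letters GGAATG (11.9%), found in none of these windows.

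The members differed widely in level between the lines. On the RPKM scale, reads per kilobase of exon and 1000000 reads, computed from recovered reads and GENCODE exon lengths, PLAU in control libraries was 185 ± 2.72 in H1299, 24.8 ± 1.63 in A549, 3.32 ± 0.433 in H1694 and 0.0326 ± 0.0178 in DMS454. These 4 levels did not overlap between lines, and in DMS454 they rested on 2, 1 and 2 reads. PLAUR kept the same order, with 65.2 ± 8.49 in H1299, 7.45 ± 0.258 in A549, 2.19 ± 0.227 in H1694 and 0.204 ± 0.0458 in DMS454. The urokinase receptor was thus also highest in H1299 and lowest in DMS454. The tables were normalized line by line, so these levels across lines are a description without a test.

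**Figure D1:**
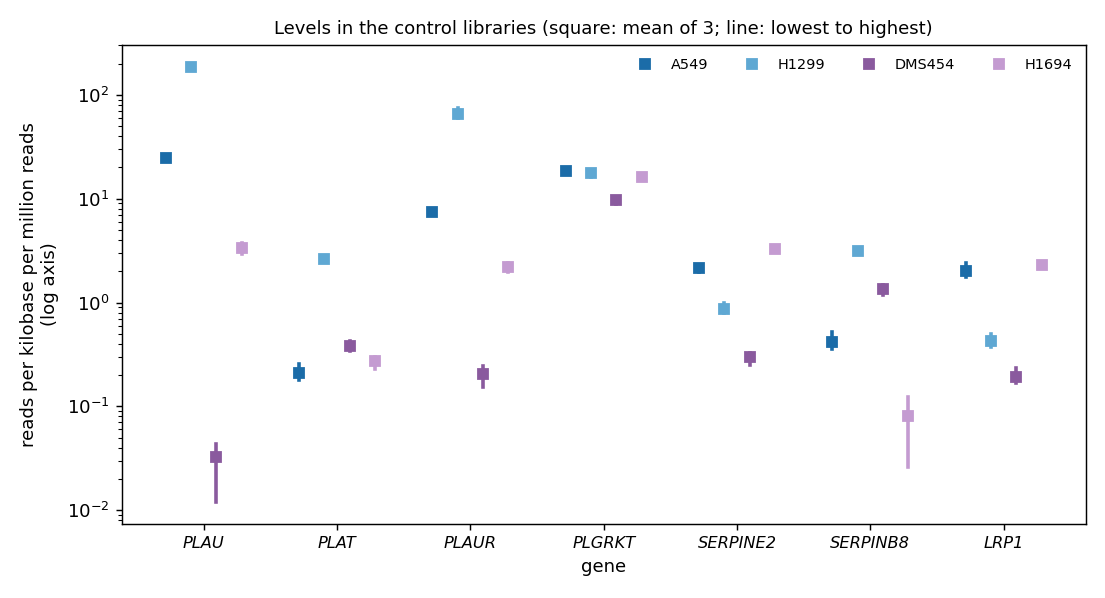
Mean RPKM of 7 genes in the 3 control libraries of each line (squares, log axis), with lines from the lowest to the highest library; SERPINB2 is left out. PLAU and PLAUR fall from H1299 (185 and 65.2) to DMS454 (0.0326 and 0.204), while PLGRKT stays between 9.71 and 18.6.

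The other members followed other orders. SERPINE2, protease nexin-1, an inhibitor of thrombin, urokinase and plasmin, was 3.24 ± 0.112 RPKM in H1694, 2.15 ± 0.155 in A549, 0.865 ± 0.103 in H1299 and 0.299 ± 0.0417 in DMS454. LRP1 was 2.29 ± 0.133 in H1694 and 2.002 ± 0.369 in A549, 2 neighbours whose libraries overlapped, then 0.424 ± 0.0668 in H1299 and 0.193 ± 0.0339 in DMS454. PLAT was 2.63 ± 0.174 in H1299 and between 0.209 and 0.380 in the other 3 lines, where A549 and H1694 overlapped. The plasminogen receptor gene PLGRKT varied least, from 9.71 ± 0.757 in DMS454 to 18.6 ± 0.281 in A549, and H1299 (17.7 ± 1.22) overlapped both A549 and H1694 (16.3 ± 0.666). SERPINB8, an intracellular clade B serpin that inhibits furin, was 3.12 ± 0.141 in H1299, 1.34 ± 0.148 in DMS454, 0.421 ± 0.0907 in A549 and 0.0808 ± 0.0498 in H1694. In the control libraries PLAU was the most abundant of these genes per kilobase in A549 and H1299, and PLGRKT in DMS454 and H1694.

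SERPINB2, plasminogen activator inhibitor 2, was hardly detected. It had 1 read in the 6 DMS454 libraries, in a library labelled CRISPR, and 0 reads in the 6 H1694 libraries, which allows up to 0.0202 RPM (3 reads of 148533875, counting error only). It was not analysed in A549 and H1299, whose tables hold genes of a mean of at least 1.13 and 1.47 normalized counts.

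In A549, HEPACAM2 overexpression went with more of both activators and of SERPINE2. PLAU, PLAT and SERPINE2 rose at least 2-fold, PLAUR rose less and PLGRKT fell. Of 7 members tested 4 rose and 1 fell, where of all 16707 tested genes 44.4% were called, 22.5% higher and 21.9% lower. The members had a median change of 0.49 on the log2 scale against -0.0019 for all tested genes. The groups stood apart without overlap in 6 of the 7, against 51.8% of all tested genes, with OE above control in 5 (26.1% of all) and below in 1 (25.7%). In the same comparison 6 of 7 epithelial markers fell and 1 rose, their sum being 10887 to 11117 RPM in the controls and 9772 to 10105 with OE, and 2 of 10 neuroendocrine markers fell. The part of these in the members' changes was not tested. Bulk RNA cannot tell a larger share of cells expressing a gene from more RNA per cell.

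PLAU (ENSG00000122861, chromosome 10, 73909177 to 73917497, plus strand, GRCh38) was 1406, 1397 and 1554 normalized counts in the A549 controls and 3123, 2987 and 3369 in the OE libraries. Every OE library was above every control. The rise was 2.17-fold (log2 fold change 1.12, SE 0.05, adjusted p = 4.1e-23), at the 98.2 percentile of log2 fold changes in that line. PLAT (ENSG00000104368), the tissue-type activator, was 24.2, 24.1 and 33.8 in the controls and 84.0, 69.2 and 79.5 with OE. The groups stood well apart, although the controls rested on 94 reads in all (log2 fold change 1.48, SE 0.20, adjusted p = 4.3e-08). C10orf55, which overlaps PLAU on the opposite strand, also rose, from 76.5 ± 21.1 to 167 ± 17.5 (log2 fold change 1.15, adjusted p = 1.8e-07). Whether the counting used strand is not given in the labels, so its reads and those of PLAU could be mixed, and their part in either value was not tested.

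Both receptor genes changed little in A549, in opposite directions. PLAUR (ENSG00000011422, chromosome 19, 43646095 to 43670547, minus strand), which anchors urokinase at the membrane, was 667, 642 and 668 in the controls and 795, 837 and 839 with OE. The groups did not overlap, and the rise was 1.25-fold (log2 fold change 0.32, SE 0.06, adjusted p = 6.5e-06). PLGRKT (ENSG00000107020, chromosome 9, 5357973 to 5437878, minus strand), a membrane protein that binds plasminogen, was 555, 553 and 547 in the controls and 451, 431 and 449 with OE. It fell by 0.32 on the log2 scale (SE 0.07, adjusted p = 1.0e-04), with every OE library below every control.

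SERPINE2 (ENSG00000135919, chromosome 2, 223975112 to 224039319, minus strand) was 389, 401 and 346 in the A549 controls and 799, 761 and 789 with OE. It rose without overlap (2.07-fold, log2 fold change 1.05, SE 0.07, adjusted p = 3.6e-18), so the inhibitor and its protease PLAU rose by similar factors in this line. LRP1 (ENSG00000123384, chromosome 12, 57128493 to 57213351, plus strand), which clears protease-inhibitor complexes, was 993, 741 and 747 in the controls and 1015, 1183 and 1279 with OE. The groups did not overlap, but control 1 lay close to OE 1 and limma did not call the difference (log2 fold change 0.49, 95% interval 0.06 to 0.93, adjusted p = 0.070). Without control 1 it was 0.63 and called, without OE 1 it was 0.59 and called, and it was also called with edgeR (0.50) and DESeq2 (0.49) on recovered reads and in the authors' deposited table (0.49, adjusted p = 0.017). SERPINB8 was 48.9 ± 10.04 and 53.0 ± 1.99, with overlapping groups and a 95% interval of -0.26 to 0.52.

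**Figure D2:**
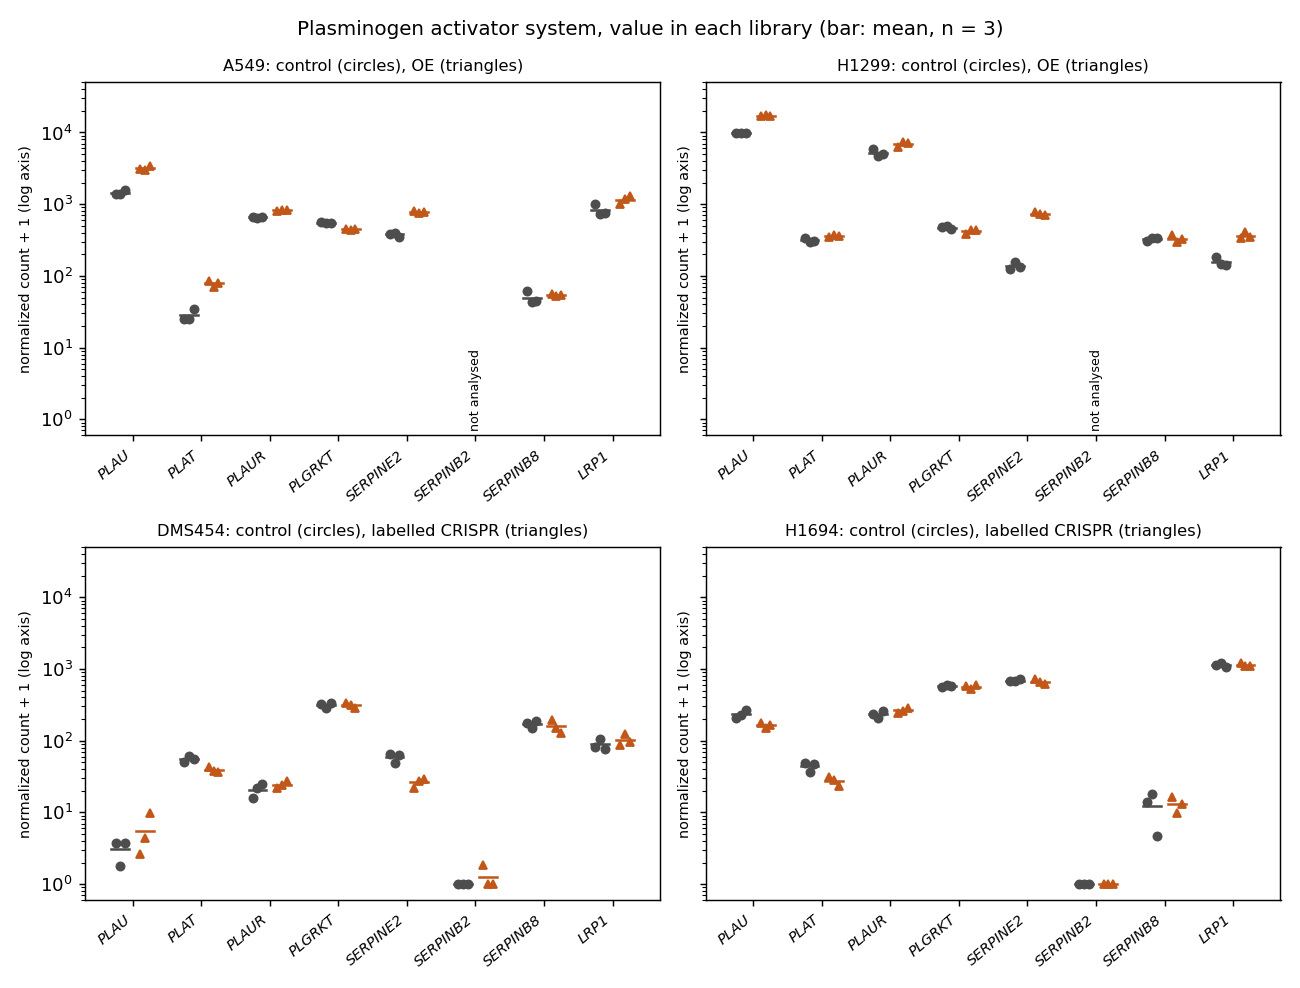
Normalized count + 1 (log axis) of the 8 genes in each library of the 4 lines, controls as circles and OE or labelled CRISPR libraries as triangles, with bars at the means (n = 3). PLAU, SERPINE2 and LRP1 triangles lie above the circles in A549 and H1299; in DMS454 SERPINE2 and PLAT triangles, and in H1694 PLAU and PLAT triangles, lie below them.

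In H1299, the changes of SERPINE2 and LRP1 were larger than in A549, PLAU rose from an already high level, and PLAUR rose slightly. Of 7 members tested 4 rose and 0 fell, where of all 16192 tested genes 28.8% were called, 13.5% higher and 15.3% lower. Members whose groups did not overlap numbered 6, against 43.3% of all tested genes, with OE above control in 5 (20.5% of all) and below in 1 (22.8%). The median change was 0.42 against 0.0018. At an unadjusted p under 0.05 no member fell either, and none was called lower by edgeR or DESeq2. Without control 1 and OE 1, 5 members were called higher and 0 lower. Of the markers, 1 of 7 epithelial and 2 of 10 neuroendocrine genes rose and 0 fell. The neuroendocrine sum was 499.6 to 534 RPM in the controls and 652 to 672 with OE. The epithelial sum was 930 to 1107 RPM in the controls and 842 to 974 with OE, with overlapping ranges. The part of these markers in the result was not tested.

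SERPINE2 was 126, 154 and 132 in the H1299 controls and 784, 727 and 700.3 with OE. It rose 5.35-fold without overlap (log2 fold change 2.42, SE 0.11, adjusted p = 1.2e-05), at the 99.8 percentile of that line, and by 2.31 without the libraries numbered 1. LRP1 was 185, 146 and 142 in the controls and 334, 409 and 348 with OE, so that the lowest OE library exceeded the highest control. The rise was 2.30-fold (log2 fold change 1.203, SE 0.14, adjusted p = 5.5e-04), and 1.38 on the log2 scale without the libraries numbered 1. STAT6, which overlaps LRP1 on the opposite strand, was 190.5 ± 21.4 and 278 ± 11.998 in H1299 (log2 fold change 0.55, adjusted p = 0.0096). In A549 STAT6 was lower with OE, 3062 ± 58.3 against 3594 ± 42.1 (adjusted p = 2.0e-06). The part of shared reads in either gene was not tested.

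PLAU in H1299 was 9842, 9674 and 9822 in the controls and 16774, 17495 and 16939.6 with OE. Both groups were tight and far apart (1.75-fold, log2 fold change 0.80, SE 0.06, adjusted p = 1.1e-04), and the change without the libraries numbered 1 was 0.82. C10orf55, on the other strand of PLAU, was 349 ± 49.1 and 680.2 ± 169.7 (log2 fold change 0.94, adjusted p = 0.0080). PLAUR was 5925, 4675 and 4973 in the controls and 6241, 7376 and 7119 with OE. Control 1 and OE 1 were each the library nearest to the other group, and the groups did not overlap (1.33-fold, log2 fold change 0.42, SE 0.10, adjusted p = 0.017). Without those libraries the change was 0.59 (adjusted p = 1.3e-10), whereas leaving out any 1 of the other 4 libraries took the adjusted p to between 0.068 and 0.081.

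The remaining members were not called in H1299. PLAT was 332, 297 and 304 in the controls and 351, 368 and 362 with OE. The OE libraries were all higher, by a small step (log2 fold change 0.21, 95% interval -0.0047 to 0.43, adjusted p = 0.13), and it was called without the libraries numbered 1 (0.28, adjusted p = 0.021). PLGRKT was 471 ± 24.6 and 422 ± 31.9, lower in every OE library than in every control but not called (log2 fold change -0.16, 95% interval -0.38 to 0.06). SERPINB8 was 327 ± 16.7 and 328 ± 35.7, with an interval of -0.25 to 0.25.

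**Figure D3:**
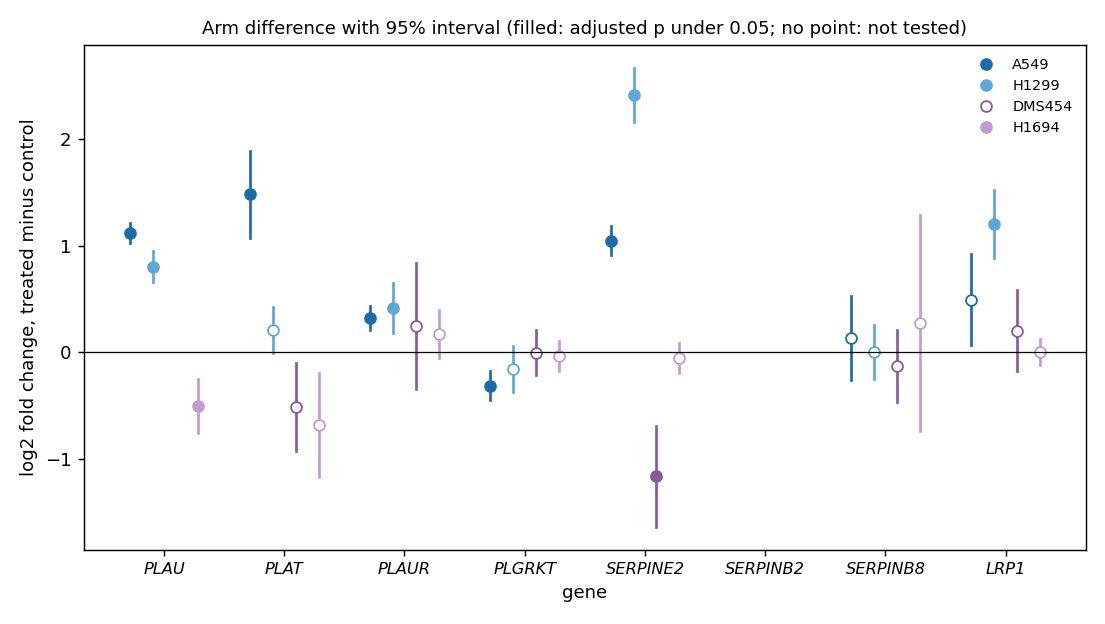
Log2 fold change (treated minus control, limma) of each gene in the 4 lines with its 95% interval, where treated stands for OE or labelled CRISPR. Filled points passed an adjusted p of 0.05, open points did not, and genes not tested have no point. Filled points above 0 belong to A549 and H1299, up to 2.42 for SERPINE2 in H1299, and the filled points of DMS454 (SERPINE2) and H1694 (PLAU) lie below 0.

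The responses of A549 and H1299 to overexpression were compared directly by an interaction contrast over their 12 libraries, which sets the within-line change in H1299 against that in A549. It was called for 4 of 7 members, where 41.2% of all 14578 genes tested in both lines were called. The rise of SERPINE2 was larger in H1299 by 1.37 (SE 0.13, adjusted p = 2.1e-06), and the change of LRP1 by 0.71 (SE 0.19, adjusted p = 0.0095). PLAT rose more in A549, with a difference of -1.27 (SE 0.20, adjusted p = 1.8e-04), and PLAU slightly more in A549, with -0.32 (SE 0.08, adjusted p = 0.0057). For PLAUR the difference was 0.09 (95% interval -0.16 to 0.34), for PLGRKT it was 0.16 (-0.07 to 0.38), and for SERPINB8 it was -0.13 (-0.56 to 0.30). The PLAUR difference was called without the libraries numbered 1 of H1299 (0.27, adjusted p = 0.0013). HEPACAM2 itself differed between the OE libraries of the lines, with 121 ± 1.75 RPKM in A549 and 602 ± 39.8 in H1299. Its part in these differences was not tested.

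In DMS454, SERPINE2 was the only member called, and it was lower in the libraries labelled CRISPR, which hold more HEPACAM2. Of 6 members tested 0 rose and 1 fell, where of all 18868 tested genes 18.9% were called, 9.15% higher and 9.72% lower. No member rose at an unadjusted p under 0.05 with limma, and none was called higher by edgeR or DESeq2. Of 10 neuroendocrine markers 3 rose and 2 fell (10115 to 10214 RPM in sum in the control arm, 9579 to 10577 in the other), and of 7 epithelial markers 2 fell, and their part was not tested. SERPINE2 was 63.8, 48.6 and 61.2 in the libraries labelled control and 20.8, 26.6 and 28.2 in those labelled CRISPR. The arms did not overlap (2.25-fold lower, log2 fold change -1.17, SE 0.22, adjusted p = 0.0028), at 154 and 88 reads in all.

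PLAT followed the same direction in DMS454 without passing. It was 48.9, 60.9 and 54.2 in the libraries labelled control and 41.6, 36.6 and 35.4 in those labelled CRISPR. The arms did not overlap (log2 fold change -0.52, 95% interval -0.93 to -0.10, adjusted p = 0.079). SERPINE2 and PLAT were the 2 members without overlap, both lower, where 36.6% of all tested genes did not overlap, 18.3% higher and 18.4% lower. PLAUR (19.8 ± 4.44 and 23.4 ± 2.62), LRP1 (87.6 ± 15.2 and 101 ± 18.2), SERPINB8 (172 ± 19.2 and 158 ± 34.8) and PLGRKT (315 ± 25.1 and 314 ± 25.5) overlapped between arms. Their intervals ran from -0.35 to 0.84 for PLAUR and from -0.22 to 0.21 for PLGRKT. PLAUR rested on 55 and 82 reads in all. PLAU was below the level tested, with 5 reads in the control arm and 17 in the other, 12 of them in CRISPR 3. HMSD, which overlaps SERPINB8 on the same strand, was 356 ± 37.0 and 259 ± 1.497 in DMS454 (adjusted p = 0.0060).

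In H1694, PLAU was the only member called, and it was lower in the libraries labelled CRISPR. Of 7 members tested 0 rose and 1 fell, where of all 17780 tested genes 17.6% were called, 8.73% higher and 8.9% lower. None rose at an unadjusted p under 0.05 or was called higher by edgeR or DESeq2. Neuroendocrine markers summed to 3339 to 3368 RPM in the control arm and 2976 to 3102 in the other, with 3 of 10 lower, 2 of 7 epithelial markers were lower and 1 of 5 endothelial markers, CDH5, was higher, and their part was not tested. PLAU was 205, 230.5 and 266 in the libraries labelled control and 178, 151 and 163 in those labelled CRISPR. The arms did not overlap (1.42-fold lower, log2 fold change -0.51, SE 0.12, adjusted p = 0.0072). PLAU and PLAT were the 2 members without overlap, both lower, against 35% of all tested genes, 17.4% higher and 17.6% lower.

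PLAT in H1694 was 47.4, 36.0 and 46.1 in the libraries labelled control and 30.4, 27.3 and 22.0 in those labelled CRISPR. All 3 were lower than the lowest control, as in DMS454, and the call was missed narrowly (log2 fold change -0.68, 95% interval -1.17 to -0.19, adjusted p = 0.052). It was called without CRISPR 1 (-0.78, adjusted p = 0.026). SERPINE2, in contrast to DMS454, was 679, 670.4 and 716 against 717, 654 and 624, with overlapping arms and an interval of -0.19 to 0.09. LRP1 (1140.0 ± 65.5 and 1142 ± 67.8) and PLGRKT (580.4 ± 23.4 and 567 ± 30.8) had intervals of -0.12 to 0.13 and -0.18 to 0.11. PLAUR was 233 ± 24.2 and 263 ± 24.6 (interval -0.05 to 0.40), and SERPINB8, near the lower limit of testing, was 11.3 ± 6.98 and 12.1 ± 3.19 (interval -0.74 to 1.29).

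The arm differences of DMS454 and H1694 were compared in the same way over their 12 libraries. Of 6 members tested in both lines 1 differed, SERPINE2, by 1.12 (H1694 minus DMS454, SE 0.19, adjusted p = 7.2e-04), where 20.2% of all 15460 tested genes differed. The difference for PLAT was -0.17, with an interval of -0.78 to 0.44. PLAU was not tested in both lines and is therefore not part of this comparison. SERPINE2 was thus called in 3 lines, higher in both OE lines and lower in the labelled CRISPR arm of DMS454. PLAU was called in 3, higher in both OE lines and lower in the labelled CRISPR arm of H1694. Both labelled CRISPR arms hold more HEPACAM2 mRNA than their controls.

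Genes whose pattern was most like that of a member were found by Pearson's correlation over the 24 libraries, after centring log2(normalized count + 1) on each line's mean. The genes compared numbered 8821 (8820 for SERPINE2 and PLGRKT), each with a mean of at least 50 in a group of every line. SERPINE2 was closest to YWHAQ (0.95) and DPYSL3 (0.93), LRP1 to ZMIZ1 (0.91) and EEIG1 (0.90), and PLAT to JAM3 (0.91) and EFR3B (0.91). PLAUR was closest to AMDHD2 (0.86) and RHBDF2 (0.84), PLGRKT to CYSTM1 (0.79) and GOLPH3 (0.78), and SERPINB8 to INO80D (0.70) and FAM151B-DT (0.61). Only members tested in every line entered, which left out PLAU and SERPINB2. Among those that entered, SERPINE2 and LRP1 were most alike (0.74), followed by PLAUR and LRP1 (0.66), and PLGRKT ran against PLAT (-0.60). The points share libraries and the large arm differences of the OE lines, so these values describe the data only.

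Beyond the members, 91 further genes of the pathway were listed by role. In A549 21 of 65 tested rose and 34 fell (median -0.17), where 22.5% of all tested genes rose and 21.9% fell. In H1299 29 of 59 rose and 11 fell (median 0.32), against 13.5% and 15.3% of all. In DMS454 8 of 61 rose and 13 fell (median -0.0071), against 9.15% and 9.72%, and in H1694 12 of 54 rose and 14 fell (median -0.072), against 8.73% and 8.9%. The median over all tested genes was -0.0019 in A549, 0.0018 in H1299, 0.00036 in DMS454 and -0.00096 in H1694. The counts by role that follow stand against the same shares, with 44.4% of all tested genes called in A549, 28.8% in H1299, 18.9% in DMS454 and 17.6% in H1694. With 1 to 16 genes a list, none of them is set apart from those shares by a test. Neuroserpin, SERPINI1, an inhibitor of the tissue-type activator, fell by 1.57 in A549 and rose by 0.66 in H1299, and the plasmin inhibitor SERPINF2 fell by 0.74 in A549. In H1694 SERPINI1 was the only gene tested among the listed inhibitors of the activators or plasmin, and it fell by 1.38; it is named after its values were seen.

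Plasminogen also binds to surface proteins other than PLGRKT. Of 5 such genes tested in A549 3 rose and 1 fell by small amounts, among them ENO1 (0.19), HMGB1 (0.17) and KRT8 (-0.23). In H1299 2 rose and 1 fell, with S100A10 (0.62) and ANXA2 (0.37), partners in a complex that binds the tissue-type activator and plasminogen, higher. In DMS454 2 of 5 fell, ANXA2 (-0.71) and HMGB1 (-0.35), and in H1694 2 of 4 fell, S100A10 (-0.46) and ANXA2 (-0.29), while HMGB1 rose (0.25). ANXA2, also slightly higher in A549 (0.08), was thus higher in both OE lines. It was lower in the labelled CRISPR arms of both small cell lines, which hold more HEPACAM2 mRNA than their controls. Among other clade B serpins, SERPINB1 fell in A549 (-0.43) and DMS454 (-0.28) and rose in H1299 (0.70), where SERPINB7 fell (-1.29).

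Among other endocytic receptors, counted together with the LRP1 chaperone gene LRPAP1, 2 of 8 in A549 rose and 6 fell. Those that fell included LRP8 (-0.61), SORT1 (-0.58) and LRPAP1 (-0.17). In H1299 4 of 9 rose and 0 fell, led by MRC2 (1.89), a collagen receptor that associates with the urokinase receptor. MRC2 was called slightly lower in A549 (-0.10). In H1694 2 of 10 rose and 2 fell, with LRP8 higher (0.44) and VLDLR lower (-0.31), and in DMS454 1 of 9 fell, LRP8 (-0.28). Partners and ligands of PLAUR rose in 5 of 11 and fell in 4 in A549, where the integrin chain ITGB6 rose (2.40), CAV1 rose (1.02) and VTN, vitronectin, fell (-1.17). In H1299 6 of 10 rose and 2 fell, with ITGB3 (1.91) and ITGA3 (0.93) higher, and in DMS454 3 of 7 fell, among them VTN (-0.66) and ITGA3 (-0.39). In H1694 1 of 7 rose, EGFR (0.30), and 3 fell.

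**Figure D4:**
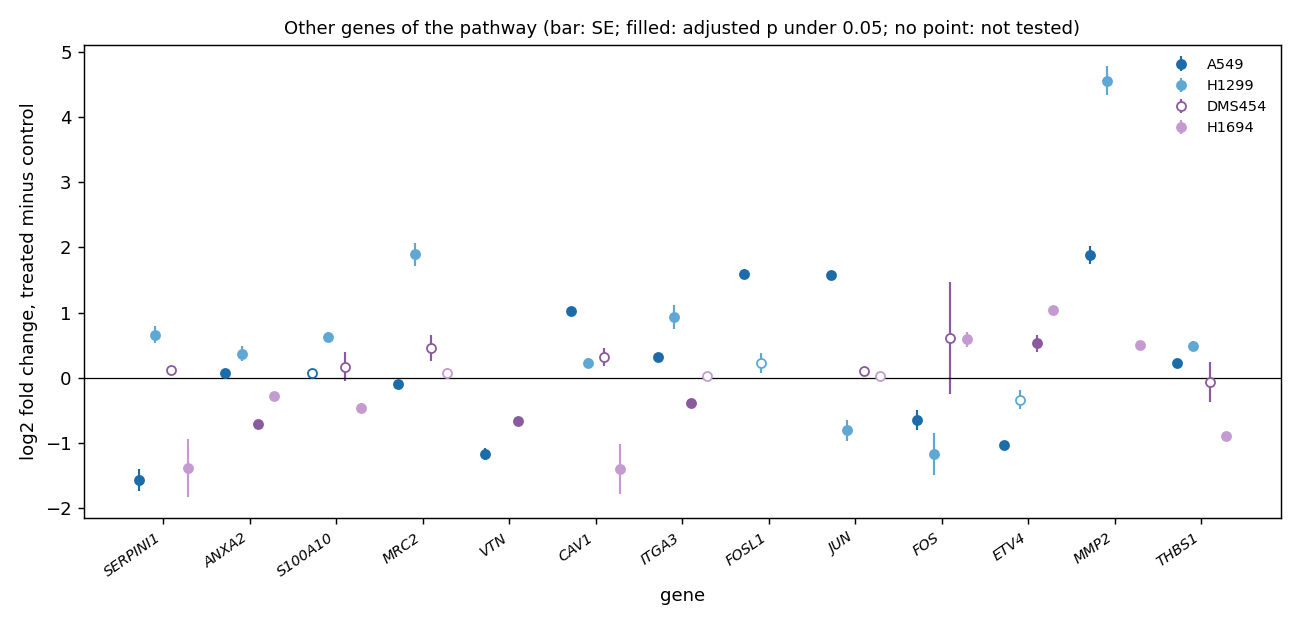
Log2 fold change (treated minus control, limma) with its SE for 13 further genes of the pathway in the 4 lines. Treated stands for OE or labelled CRISPR, and the genes were picked for display after their values were seen. Filled points passed an adjusted p of 0.05 and genes not tested have no point. JUN lies at 1.58 in A549 and -0.81 in H1299, and MMP2 is above 0 in the 3 lines where it was tested.

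Proteases that activate urokinase, counted together with their inhibitors, fell in 6 of 7 and rose in 0 in A549. The largest change was that of the inhibitor gene SPINT1 (-1.23, SE 0.30), whose means were under 50. The cathepsin gene CTSL was at -0.42. In H1299 4 of 6 rose and 0 fell, among them the serine protease inhibitor SPINT2 (1.002). In DMS454 3 of 10 rose, led by the membrane serine protease TMPRSS4 (1.71), and 4 fell, with HPN at -0.73, and in H1694 1 of 8 rose and 2 fell, CTSL by most (-1.09). Substrates of plasmin and urokinase rose in 3 of 11 and fell in 7 in A549, where the fibrinogen chains FGG (-3.29), FGB (-2.99) and FGA (-2.55) were lower. They rose in 8 of 9 and fell in 0 in H1299, with MMP2 (4.56), MMP1 (2.25) and LTBP1 (1.94). In DMS454 2 of 8 rose, FGB (1.47) and FGA (0.72), and 1 fell, LAMA5 (-0.29). In H1694 2 of 8 rose, among them MMP2 (0.51), and 2 fell, THBS1 (-0.89) and LTBP1 (-0.20).

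Genes of AP-1 and ETS factors, families known to bind urokinase system promoters, rose in 7 of 16 and fell in 5 in A549, where EHF fell most (-1.94). FOSL1 was 300.1 ± 8.89 and 910.1 ± 38.5 (log2 fold change 1.60), and JUN was 368 ± 12.2 and 1104 ± 86.4 (1.58). In H1299 2 of 14 rose and 6 fell, with FOSB (-1.86), FOS (-1.17) and ETS2 (-1.06) lower. JUN was also lower there (-0.81) and FOSL1 was not called (0.23, SE 0.15), both named for their change in A549. In H1694 5 of 13 rose and 2 fell, ETV4 by 1.04 and FOS by 0.59 upward, and in DMS454 3 of 15 rose, ETV5 (0.54), ETV4 (0.53) and JUNB (0.45).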

How the data were processed

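Per the submitters' processing notes, reads were handled with CASAVA, FastQC and Trim Galore, aligned with STAR to hg38 and analysed with DESeq2. No source used here gives versions, counter, annotation or strand setting. The deposited value per library is a signal, counts divided by the authors' size factor. Deposited fold changes and their SE are on the log2 scale, the deposited Wald statistic is a score, and the deposited p-values are raw and adjusted, with the libraries titled control as numerator in DMS454 and H1694.

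All non-zero values (100% within 0.01) gave whole reads, on which edgeR called 7456 genes in A549, 4671 in H1299, 3494 in DMS454 and 3078 in H1694. Each line's whole table was fitted with limma 3.58.1 (trend, robust, R 4.3.3) on log2(value + 1), which understates changes of low genes, with Benjamini-Hochberg adjustment over all tested genes. edgeR 4.0.16 and DESeq2 1.42.0 on recovered reads, TMM scaling, other filters (none, mean of 50), a pseudocount of 5, the replicate number as a block and leaving out libraries were alternatives. On simulated counts with 2-fold changes limma recovered 90% in A549, 98% in H1299, 88% in DMS454 and 90% in H1694 of 50 changed genes. Among its calls 7.14%, 2.91%, 5% and 4.35% were false, in the same order. Every simulated gene had a dispersion of 0.01 and no library deviated. The shares therefore do not measure sensitivity at the spread of the real libraries, and do not rank the lines. No 2 replicates agreed within sampling noise. Deviations of same-numbered control and OE or labelled CRISPR libraries correlated between -0.54 and 0.12, so the numbers were not taken as pairs.

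Identifiers were matched without version to a table of gene names and GENCODE release 29 (99.97% in every line), and 45 duplicate pseudoautosomal records were left out in DMS454 and H1694. All 8 members matched. Promoter windows come from RefSeq, with 7 of 8 members matched. Intervals of changes come from limma and include the spread between libraries, while the floor of 3 reads covers counting error only. The members, gene lists and tests were chosen with earlier results of these data known. Named genes are the members, HEPACAM2, up to 3 called genes per list and line with the largest change and a mean of at least 50, and the 2 genes most correlated with each member tested in all lines. Some genes that this rule names are not reported here.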

Additional observations from a re-analysis of the deposited data

Results flagged for a closer look

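Changes with HEPACAM2 overexpression that differed between A549 and H1299 were those of SERPINE2 (1.37 larger in H1299 on the log2 scale), LRP1 (0.71 larger), PLAT (-1.27, smaller in H1299) and PLAU (-0.32). Between the small cell lines the arm difference of SERPINE2 differed by 1.12 (H1694 minus DMS454). These were picked out by the limma test of the difference itself, and each kept its sign under every alternative run for it, leaving out each library in turn included.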

How the results depend on the processing

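Of 567 values of members under the alternatives, 553 kept their call, 8 gained and 6 lost it, and 0 that were called changed sign, while 21 that were never called did. With the replicate block, although the numbers do not pair the libraries, 1634 genes were called in H1299, 3 members rose there (PLAUR had an adjusted p of 0.10) and the LRP1 difference between the OE lines had an adjusted p of 0.054. Without both H1299 libraries numbered 1, 8922 genes were called in H1299. Leaving out 1 library gave 2674 (without control 3) to 5429 (without control 1) calls in H1299, 1964 (without control 2) to 6605 (without CRISPR 3) in DMS454, where each of the 6 moved the count by over 1.5 times, and 1835 (without control 2) to 4510 (without CRISPR 1) in H1694. Members called lower in H1694 numbered 2 with a pseudocount of 5, PLAT (-0.61) being added, and 1 to 2 when a library was left out (2 without CRISPR 1). In H1299 control 2, OE 2 and OE 3, and in H1694 control 1 and CRISPR 2, also moved the count by over 1.5 times. The block changed no other call of a member. The cause was not tested. Few reads or none were counted for PLAU in DMS454, for SERPINB2 in DMS454 and H1694, and for SERPINB8 in H1694.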
